A study of Rattus norvegicus with 4 samples.

Results

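Kidney lineage transcription factors are the DNA-binding proteins that set up the kidney in the embryo and keep parts of the adult tubule in their identity. The group described here consists of 8 genes fixed by name, Pax2, Pax8, Lhx1, Hnf4a, Emx2, Osr1, Wt1 and Gata3, looked up by exact symbol among the 17768 genes of the deposited table. Of the 8, 5 had a row: Gata3, Emx2, Wt1, Osr1 and Pax8. No row named Pax2, Lhx1 or Hnf4a was found, a search by RefSeq synonyms found 0 of them, and these 3 genes are not analysed here. Every row of the table had at least 2 reads summed over the 4 libraries, so no level, zero included, can be read for a gene without a row.

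The data are 4 RNA sequencing libraries of NRK-52E, an established rat kidney line that the labels call proximal tubular epithelial, in 2 groups of 2 titled lv_nc and lv_Mettl3. Both groups carry the treatment label untreated. According to the labels, the line that overexpresses METTL3, the catalytic subunit of the enzyme complex that methylates adenosines in RNA, was made with a lentiviral pLVX-IRES-Puro vector holding a murine cDNA, with puromycin at 0.5 mg/ml for selection and 0.25 mg/ml afterwards in medium with 10% serum. The labels do not spell out nc, the vector in that group, or whether the 2 libraries of a group are separate cultures; p-values here therefore reflect only library-to-library spread, possibly technical. Gene reads ranged from 15068898 to 16622255 per library. Mettl3 itself had normalized counts of 719 and 767 in lv_nc against 757 and 700 in lv_Mettl3, so the row of the titled gene did not separate the groups. Whether reads of the murine cDNA are counted in this rat row was not tested. Directions are given for libraries by label, lv_Mettl3 against lv_nc.

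In the embryo, Osr1 marks the intermediate mesoderm from which the kidney arises, Pax2, Pax8 and Lhx1 act in the nephric duct and in early nephron epithelium, and Wt1 acts in the metanephric mesenchyme and later in podocytes. Gata3 and Emx2 are needed for the nephric duct and the ureteric bud, which becomes the collecting duct, and Hnf4a drives the mature proximal tubule programme. Several of these genes also have well known roles outside the kidney, among them Wt1 in the mesothelium and gonad and Gata3 in T lymphocytes and breast epithelium.

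The 5 genes with a row spanned a wide range of RNA levels in NRK-52E. Levels of different genes are compared as RPKM, the reads per kilobase of deposited gene length relative to the gene reads of the library, averaged over the 4 libraries. Gata3 was highest at an RPKM of 16.1 ± 1.53 (SD, n = 4), above 77.2% of the 1088 genes that the table assigns to a transcription factor family. Emx2 followed at 2.56 ± 0.546 and Wt1 at 2.09 ± 0.504, which lie at the 37.7th and 34.7th percentile of those factors. Osr1 was at 0.301 ± 0.135 and Pax8 at 0.0669 ± 0.0390, the 16.6th and 8.92nd percentile. In each of the 4 libraries Gata3 exceeded Emx2, by 4.65 to 9.32 times per length, Wt1 exceeded Osr1, by 3.09 to 13.5 times, and Osr1 exceeded Pax8, by 3.50 to 6.42 times. Emx2 and Wt1 did not differ beyond their spread: the ratio of Emx2 to Wt1 ran from 0.789 to 2.10 and was above 1 in 3 of 4 libraries.

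The sequences next to the annotated start sites are shown for the highest and the lowest of these genes, because their RNA levels lie at opposite ends. The 250 bases before the start come from RefSeq (build GRCr8), run 5′ to 3′ on the gene's strand, and have each CG dinucleotide, the site of DNA methylation, in capitals. The window of Gata3 is chr17:73553298-73553547 on the plus strand and that of Pax8 is chr3:27640632-27640881 on the minus strand.

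Gata3: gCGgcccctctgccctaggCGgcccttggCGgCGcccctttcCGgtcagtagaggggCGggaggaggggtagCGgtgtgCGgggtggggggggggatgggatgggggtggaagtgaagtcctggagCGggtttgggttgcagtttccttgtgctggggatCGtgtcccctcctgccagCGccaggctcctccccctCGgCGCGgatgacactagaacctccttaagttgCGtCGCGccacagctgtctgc

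Pax8: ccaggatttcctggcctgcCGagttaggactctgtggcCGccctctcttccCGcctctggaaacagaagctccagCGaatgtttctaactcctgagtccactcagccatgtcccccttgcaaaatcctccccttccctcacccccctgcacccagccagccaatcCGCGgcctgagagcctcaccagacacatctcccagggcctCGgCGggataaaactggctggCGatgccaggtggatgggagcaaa

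The Gata3 window held 17 CG dinucleotides, the 79.0th percentile of 33469 RefSeq windows of this length, and the Pax8 window held 9, the 62.8th percentile. The GC content was 68.4% and 60.8%. The letters GGGCGG, known as a GC box, occur on one strand or the other in both windows and in 30.5% of all windows. The letters CCAAT occur in the Pax8 window and in 34% of all windows. TATAAA, in 12.9% of all windows, and GATAAG, in 6.18%, were in neither. The outer end of the annotated gene lies 9314 bases beyond the start used for Gata3 and 463 bases beyond that for Pax8, so each gene has another annotated start. Which start NRK-52E uses was not measured, and these letters are a description of the windows, not of bound sites. RefSeq start sites were at hand for 7 of the 8 symbols, all but Emx2. The windows of Wt1 and Osr1, not shown, held 27 and 1 CG dinucleotides, the 92.8th and 13th percentile. The outer gene end lies 2288 bases beyond the start used for Wt1 and 8963 bases beyond that for Osr1. These genes thus also have another annotated start. CG counts of the windows used here did not follow the order of RNA levels, and whether these starts are the ones in use was not tested.

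Gata3, a zinc finger factor of the duct lineage (ENSRNOG00000019336, chromosome 17, 72429618 to 72450681 in the authors' coordinates, build not stated), had normalized read counts of 664 and 578 in lv_nc against 705 and 759 in lv_Mettl3. Both lv_Mettl3 libraries lay above both lv_nc libraries. The means were 621 ± 61.1 and 732 ± 37.8 (SD, n = 2), a log2 fold change of 0.24 (SE 0.13) with a 95% interval of -0.08 to 0.56 by limma, and the adjusted p was 0.537 by limma and 0.818 by DESeq2 on the recovered reads. The interval spans folds of 0.945 to 1.47, and the difference did not pass the test.

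Emx2, a homeobox factor of the ureteric bud and of the forebrain (ENSRNOG00000009482, chromosome 1, 280633938 to 280640946), had 124 and 138 in lv_nc against 83.8 and 130 in lv_Mettl3. The low value was that of lv_Mettl3 replicate 1, while lv_Mettl3 replicate 2 fell between the lv_nc libraries. The log2 fold change was -0.32 (SE 0.28, 95% interval -1.04 to 0.40), with a limma adjusted p of 0.681. Without lv_Mettl3 replicate 1 it came to -0.005, so 1 library set the size of this difference.

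Wt1, a zinc finger factor of kidney mesenchyme, podocytes and mesothelium (ENSRNOG00000013074, chromosome 3, 95133713 to 95180564), had 109 and 58.2 in lv_nc against 94.4 and 83.7 in lv_Mettl3. The lv_nc libraries held both the highest and the lowest value, 1.88 times apart, and enclosed the lv_Mettl3 libraries. The reads behind the lv_nc values were 112 and 63. The log2 fold change was 0.15 (SE 0.36, 95% interval -0.78 to 1.09; limma adjusted p = 0.893), and without lv_nc replicate 2 it turned to -0.30.

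Osr1, a zinc finger factor of the intermediate mesoderm (ENSRNOG00000004210, chromosome 6, 35314444 to 35321667), had 8.79 and 15.7 in lv_nc against 11.7 and 5.17 in lv_Mettl3, from 9, 17, 11 and 5 reads. The groups overlapped, and the log2 fold change was -0.53 (SE 0.58, 95% interval -2.03 to 0.96; limma adjusted p = 0.742). Over the summed reads of each group, 26 and 16, the ratio of lv_Mettl3 to lv_nc was 0.678 with an exact 95% interval of 0.340 to 1.31, which covers counting error only.

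Pax8, a paired box factor of the nephric lineage and a common antibody marker of renal epithelium (ENSRNOG00000026203, chromosome 3, 1527279 to 1584946), had 2.93 and 4.62 in lv_nc against 2.12 and 1.03 in lv_Mettl3. These values rest on 3, 5, 2 and 1 reads, under a mean of 10 that is called near zero here. Both lv_Mettl3 libraries lay below both lv_nc libraries, but the ratio of the group reads, 8 and 3, was 0.413 with an exact 95% interval of 0.0706 to 1.72, so no difference was detectable at this depth. The limma log2 fold change was -0.90 (SE 0.58, adjusted p = 0.584), on a log2(value + 1) scale that understates changes of low genes.

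**Figure D1:**
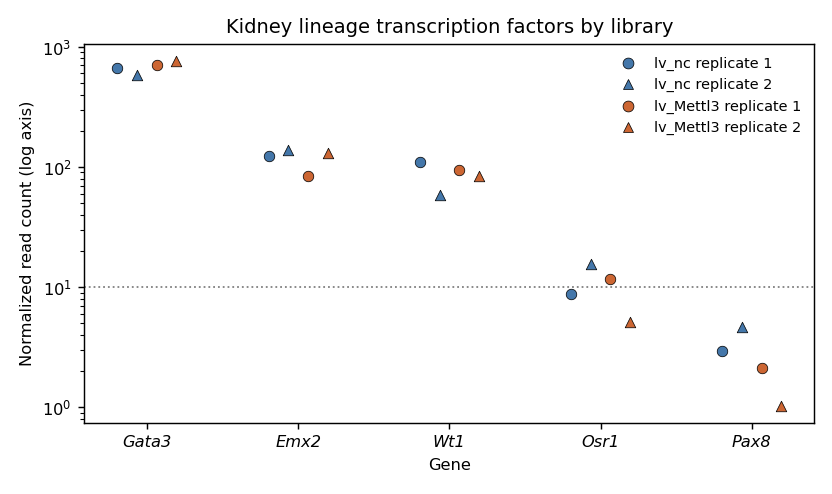
Normalized read counts (log axis) of the 5 genes in each of the 4 libraries; blue is lv_nc, orange is lv_Mettl3, circles are replicate 1 and triangles replicate 2, and the dotted line marks a count of 10. Gata3 lies between 578 and 759, Emx2 and Wt1 between 58.2 and 138, Osr1 between 5.17 and 15.7 and Pax8 between 1.03 and 4.62.

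None of the 5 genes was called between the groups by limma, DESeq2 or the quasi-likelihood test of edgeR, which did not test Pax8, and 0 had an unadjusted limma p under 0.05. All 5 passed the filter on low values in limma, and DESeq2 gave an adjusted p for 3 of them, all but Osr1 and Pax8. Over all genes limma called 3 of 16391, or 0.0183%, and DESeq2 called 318 of 12601, or 2.52%, and a count of 0 among 5 genes is near either background share. Of the 5, 1 gene (Gata3) had both lv_Mettl3 libraries above both lv_nc libraries and 1 (Pax8) had both below. Over all tested genes those shares were 23.5% and 21.5%. The median log2 fold change of the 5 genes was -0.32, from -0.90 to 0.24, beside a median of 0.005 over all genes tested. The authors' deposited table gives adjusted p-values of 0.818 for Gata3, 0.945 for Emx2 and 0.995 for Wt1. To these digits they equal the values of the DESeq2 run made here on the recovered reads, so they are not a separate test.

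**Figure D2:**
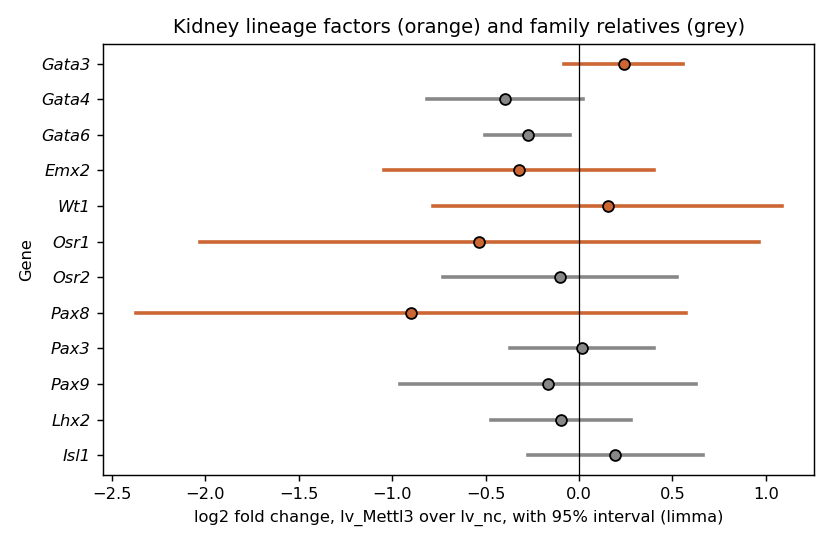
Log2 fold changes of lv_Mettl3 over lv_nc from limma with 95% intervals, for the 5 kidney lineage factors (orange) and 7 family relatives (grey); bars to the right of the line at 0 are higher in lv_Mettl3. The intervals of all 5 kidney lineage factors cross 0, and those of Osr1 and Pax8 are the widest.

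Family relatives of these factors, which share their DNA-binding domains, were looked at in the same way. Of 30 relatives fixed as a list, 15 had a row and 7 had a mean of at least 100. The most abundant by count were Gata6, Isl1 and Lhx2. Osr2, Gata4, Pax3 and Pax9 are named beside them after their values were seen. Per length, Gata6, a factor of endoderm, heart and mesothelium, was above Gata3 in all 4 libraries, by 2.12 to 3.39 times. Gata4, which acts with Gata6 in heart and gonad, was at 0.373 to 0.710 of Gata3. Osr2 exceeded Osr1 by 18.7 to 58.8 times. Pax3, a factor of muscle precursors and neural crest, exceeded Pax8 by 57.5 to 263 times, with counts of 226 and 228 in lv_nc and 226 and 234 in lv_Mettl3. Pax9, a factor of the pharyngeal pouches and skeleton, exceeded Pax8 by 28.6 to 98.0 times. The Pax8 side of these ratios rests on 1 to 5 reads per library, and the Osr1 side of the ratio to Osr2 on 5 to 17. Among LIM homeobox genes, Lhx2 had 484 and 413 in lv_nc against 395 and 441 in lv_Mettl3, and Isl1 had 632 and 457 in lv_nc against 628 and 604 in lv_Mettl3.

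limma called 0 of the 14 relatives it tested and DESeq2 called 0 of the 10 it gave an adjusted p, and their median log2 fold change was -0.13. Of the 14, 2 had both lv_Mettl3 libraries below both lv_nc libraries, under the share of 21.5% over all tested genes, and 0 had both above. The 2 were Gata6 and Gata4. Gata6 had 1555 and 1589 in lv_nc against 1296 and 1303 in lv_Mettl3 (log2 fold change -0.27, SE 0.09, limma adjusted p = 0.452). Gata4 had 438 and 517 against 331 and 396 (log2 fold change -0.39, SE 0.16, limma adjusted p = 0.490). Neither passed the test. The values of Gata3 went the other way, and the difference between the genes was not tested.

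**Figure D3:**
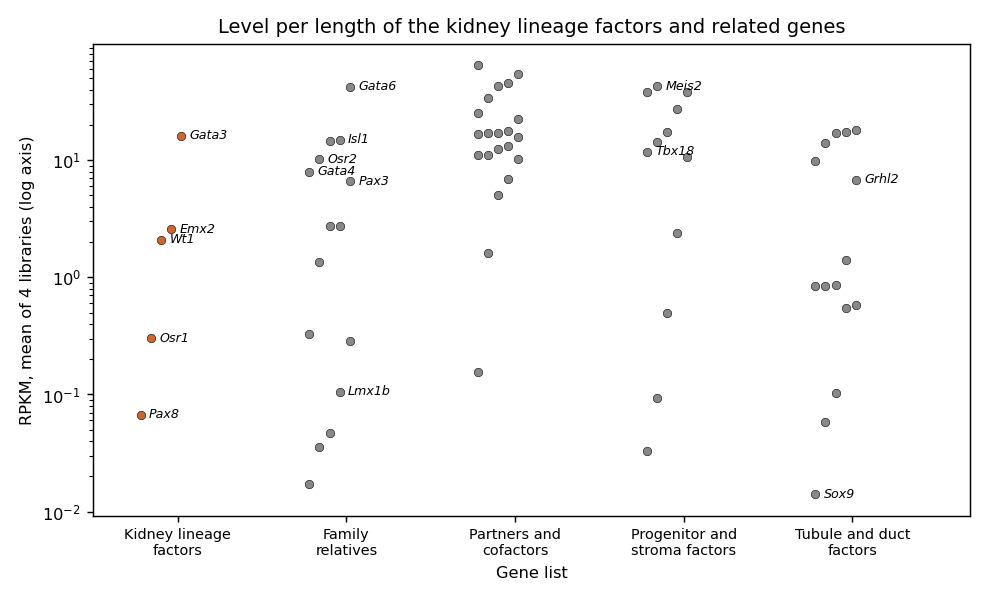
RPKM (mean of the 4 libraries, log axis) for each gene with a row, by list; the kidney lineage factors are orange and the others grey, horizontal offsets only separate points, and some genes are named. Gata3 is near the upper part of the family relatives, while Osr1 and Pax8 sit below Osr2 and Pax3.

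Partners and cofactors through which these factors act were abundant. Of 24 on the list, 21 had a row and 19 had a mean of at least 100. Ldb1, the adaptor that LIM homeobox proteins bind, had 1716 and 1870 in lv_nc against 1493 and 1393 in lv_Mettl3. Ssbp3, which stabilizes Ldb1 complexes, had 1740 and 1779 in lv_nc against 1433 and 1506 in lv_Mettl3, and the coactivator gene Crebbp had means of 1670 ± 195 and 1589 ± 121. The cofactors of GATA proteins Zfpm1 and Zfpm2 had means of 925 ± 108 and 1411 ± 53.6 in lv_nc and 815 ± 101 and 1601 ± 159 in lv_Mettl3. limma called 0 of the 21 and DESeq2 0 of the 20 it gave an adjusted p. Both lv_Mettl3 libraries lay below both lv_nc libraries in 11 of the 21 and above them in 2, beside 21.5% and 23.5% of all tested genes. Ldb1 had a log2 fold change of -0.31 (limma adjusted p = 0.452), and the list's median was -0.14.

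Other factors of the nephron progenitor and its surrounding stroma were mixed in level. Of 20 on the list 12 had a row, 8 of them with a mean of at least 100, while Six2, Eya1, Sall1, Hoxd11, Tcf21, Foxd1 and Uncx had no row and are not analysed here, and Hoxa11 had 2 rows of the same name and was left out. Foxc1, a forkhead factor of mesenchyme, had means of 2273 ± 65.6 in lv_nc and 2475 ± 190 in lv_Mettl3. Meis2, a homeobox cofactor, had 2268 ± 138 and 1921 ± 38.5, and Mecom, a zinc finger factor, had 2061 ± 49.7 and 2151 ± 156. limma called 0 of the 12 and DESeq2 0 of the 9 it gave an adjusted p.

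Factors of mature tubule and duct epithelium ranged from near zero to abundant. Of 23 on the list 15 had a row, 3 of them with a mean under 10 and 6 with a mean of at least 100. The highest by count were Cux1 (1330 ± 62.7 in lv_nc and 1162 ± 27.1 in lv_Mettl3), the orphan receptor gene Esrra (540 ± 28.7 and 618 ± 51.0) and Grhl2, a factor of epithelial junction genes (501 ± 3.44 and 655 ± 23.0). Per length Rxra, a partner of nuclear receptors, was highest at an RPKM of 18.0 ± 1.93 (SD, n = 4), with Cux1 at 17.5 ± 1.68 and Esrra both within its spread, and Grhl2 was at 6.80 ± 0.957. Grhl2 had both lv_Mettl3 libraries above both lv_nc libraries, with a log2 fold change of 0.39 and a limma adjusted p of 0.442. Such separation upward was found in 6 of the 15 and downward in 3, beside 23.5% and 21.5% of all tested genes. limma called 0 of the 15 and DESeq2 0 of the 12 it gave an adjusted p.

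Signals and targets of these factors in kidney development held the only calls among the lists of related genes. Of 23 on the list 14 had a row, and limma called 0. DESeq2 called 2 higher and 1 lower of the 12 it gave an adjusted p, beside 2.52% of all genes. The list was chosen with earlier results of these data known, so its share of calls cannot be weighed against that of all genes. Bmp4, a ligand that limits ureteric budding, had 2046 and 1364 in lv_nc against 2841 and 2991 in lv_Mettl3 and rose in DESeq2 (log2 fold change 0.77 with an SE of 0.20, adjusted p = 0.00729, against a limma adjusted p of 0.405). Spry1, an inhibitor of receptor tyrosine kinase signalling in the ureteric bud, had 64.5 and 73.9 in lv_nc against 193 and 206 in lv_Mettl3 and rose in DESeq2 (log2 fold change 1.53 with an SE of 0.34, adjusted p = 0.00109, against a limma adjusted p of 0.274). Ncam1, an adhesion molecule of the induced mesenchyme, had 680 and 983 in lv_nc against 260 and 302 in lv_Mettl3 and fell in DESeq2 (log2 fold change -1.57 with an SE of 0.24, adjusted p = 2.75e-08, against a limma adjusted p of 0.274). The abundant members Ctnnb1, the Wnt effector beta-catenin, and Notch2 had 8992 ± 823 and 5202 ± 594 in lv_nc, 7771 ± 36.8 and 4454 ± 106 in lv_Mettl3, and were not called. Wnt4, a signal of tubule formation downstream of Pax2, had 112 and 92.3 in lv_nc against 81.6 and 89.9 in lv_Mettl3. Without lv_nc replicate 2 the limma log2 fold change of Bmp4 was 0.51 in place of 0.80. The list's median log2 fold change was -0.21.

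The label of the cells was checked against markers of the kidney and of other cell types. Of 15 proximal tubule markers 9 had a row, and 5 of the 9 stayed under a count of 10 in every library. Lrp2 and Cubn, the endocytic receptors that define the proximal tubule, had 1.95 and 0.923 and 13.7 and 20.3 in lv_nc, and 0 and 0 and 7.42 and 15.5 in lv_Mettl3. The water channel gene Aqp1 had at most 6.46, and Pck1 and Slc2a2 were listed at 0 in 3 of 4 libraries. The glucose transporter gene Slc5a2, also a defining marker, was low but above 10 in every library, with 38.1 and 20.3 in lv_nc against 29.7 and 39.3 in lv_Mettl3, and the peptidase gene Anpep had 9.54 to 24.8. Ggt1, a brush border peptidase, was the 1 abundant marker at 2471 ± 83.6 and 3526 ± 328 and rose in DESeq2 (log2 fold change 0.51, adjusted p = 0.0345; limma adjusted p = 0.378). Of 9 general epithelial markers 7 had a row, 2 of them at 100 or more and 4 under 10 in every library. Krt8 had 29513 and 33065 in lv_nc against 28296 and 32176 in lv_Mettl3. Tjp1 had 11767 and 10903 in lv_nc against 12378 and 12196 in lv_Mettl3. Cdh1 and the kidney cadherin Cdh16 stayed at or under 8.79 and 5.30. Of the 9 proximal tubule markers with a row, 8 thus stayed at or under 39.3 in every library, and the libraries are described as the line NRK-52E.

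Wt1 and GATA factors are also known from the mesothelium, the lining of body cavities. Its markers Upk3b, Msln and Lrrn4 averaged 475 ± 95.7, 236 ± 34.3 and 224 ± 8.26 RPKM (SD, n = 4), above 99.3%, 98.4% and 98.2% of all genes in the table, while Krt19 was listed at 0 in 3 of 4 libraries. The summed count of the 4 mesothelial markers was 27451 and 28408 in lv_nc and 23717 and 24751 in lv_Mettl3. Upk3b was called lower by DESeq2 (log2 fold change -0.45, adjusted p = 0.0443; limma adjusted p = 0.378). Of 7 fibroblast and smooth muscle markers with a row, 5 were at 100 or more in every library. DESeq2 called 4 lower (Col1a1, Col3a1, Col1a2 and Acta2) of the 6 it gave an adjusted p, beside 2.52% of all genes called in either direction. limma called 0 of the 7, with adjusted p-values of 0.30, 0.21, 0.37 and 0.45 for these 4 genes. The lv_nc libraries were far apart for Col1a1, at 3914 and 8706, and for Acta2, at 1531 and 748. Their summed count was 9646 and 15904 in lv_nc against 2989 and 2398 in lv_Mettl3. These 4 genes were picked by the DESeq2 call, so the direction of their sum follows from that choice. Over all 7 markers the summed count was 73946 to 86450 in lv_nc and 84094 to 85678 in lv_Mettl3. Most of it came from Vim, which had 73025 and 56378 in lv_nc against 78944 and 81126 in lv_Mettl3 and was not called. Markers of endothelium, at summed counts of 9.54 to 25.8, of leukocytes, at 28.6 to 58.9, and of the distal tubule and collecting duct, at 7.42 to 33.1, were low. The T cell receptor component Cd3e, a marker of the lymphocytes in which Gata3 is best known, reached at most 4.13. Of the podocyte genes Nphs1 reached 4.62, and Synpo had 606 to 847. Podxl, the gene of a podocyte surface sialomucin, had 3.91 and 7.39 in lv_nc against 29.7 and 36.2 in lv_Mettl3 (limma log2 fold change 2.40, SE 0.47, adjusted p = 0.378; DESeq2 adjusted p = 0.125). Its groups did not overlap, and the difference did not pass either test. In bulk RNA fewer cells of a type and less RNA per cell cannot be told apart, and the part that these marker differences play in the values of Wt1 and Gata3 was not tested.

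**Figure D4:**
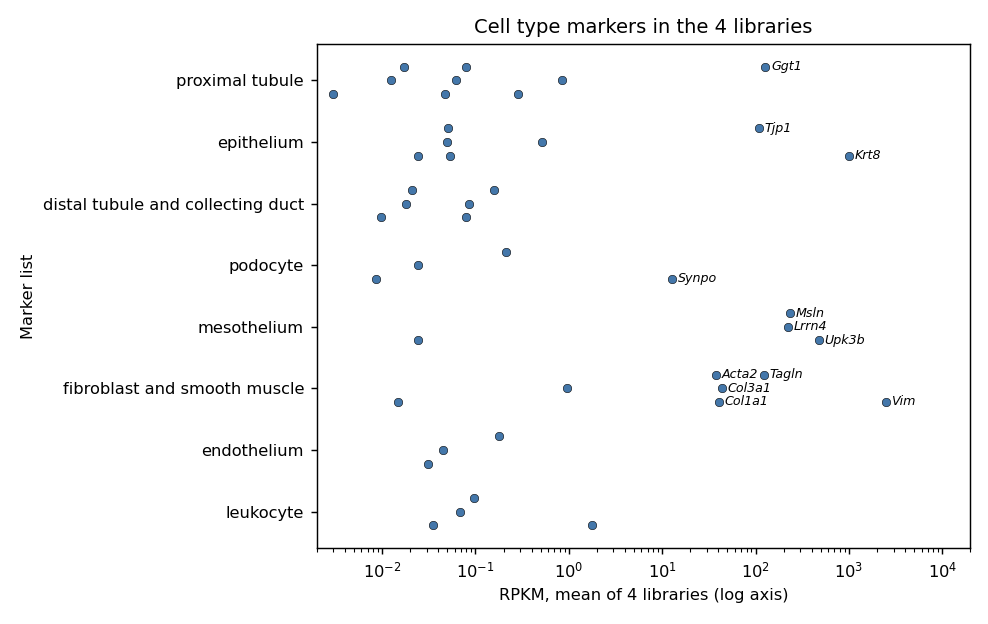
RPKM (mean of the 4 libraries, log axis) of each cell type marker with a row, by list; points above 5 are named and vertical offsets only separate points. Upk3b, Msln and Lrrn4 lie at 475, 236 and 224, and of the proximal tubule markers Ggt1 alone lies above 5.

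For each of the 3 factors with a mean of at least 50, the genes with the most similar profile over the 4 libraries were found as those with the smallest root mean square distance between centred log2(value + 1) values, among 9840 named genes. Nearest to Gata3 were Emp3, at a distance of 0.0104, and Mthfd1l, at 0.0123. Nearest to Emx2 were Zfp629 at 0.0296 and Hmgn1 at 0.0336, which share its low value in lv_Mettl3 replicate 1. Nearest to Wt1 were Nhs at 0.0385 and Slc7a9 at 0.0386, whose lowest values were also those of lv_nc replicate 2. With 4 libraries these distances are a description of the profiles and carry no test.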

How the data were processed

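RNA of NRK-52E cells was sequenced in 4 libraries, grouped by title. Per the submitters' processing notes, CASAVA 1.4 and HISAT2 were used; the counter, strand setting, genome build and annotation were not given in the sources used here. Deposited values are a normalized signal, gene reads scaled by 1 factor for each library. With a tolerance of 0.001 reads, 100% of values were whole multiples of the smallest positive value of their library, and whole reads were recovered from this. The log2 fold changes and p-values in the authors' deposited table are their own, per the file headers, and gene lengths are as deposited; RPKM was computed here from these lengths and the recovered reads. A total of 0 further sample columns were left unused.

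Tests ran over all genes with limma 3.58.1 (trend) on log2(value + 1), keeping genes that reached a value of 1 in 2 or more libraries, and Benjamini-Hochberg adjusted p-values under 0.05 were called. DESeq2 1.42.0 and edgeR 4.0.16 were run on the recovered reads (R 4.3.3, Python 3.11.15, matplotlib 3.10.9). Sensitivity covered scaling, pseudocount, filter, block and leaving out each library. Scripts were tested on simulated data. The members and lists were chosen with earlier results of these data known. Of 194 symbols in the lists and marker sets, 125 had 1 row each; 1 further list gene is not reported here. Named genes were all members, list genes called by either limma or DESeq2, the 3 most abundant of each list, and for each member with a mean of at least 50 the 2 genes of nearest profile; other genes are named as examples chosen after their values were seen, marker genes included. Exact intervals are Clopper-Pearson at 95% and cover counting error only.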

Additional observations from a re-analysis of the deposited data

How the results depend on the processing

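The call of 0 among the 5 factors held under all alternatives run. The limma count over all genes, 3, was 0 with a pseudocount of 0.1, 24 with robust empirical Bayes, 5 with a value of at least 10 in all libraries, 0 without any 1 library (lowest and highest 0), 5 with edgeR and 318 with DESeq2. Wt1 turned direction, to -0.297 without lv_nc replicate 2; its log2 fold change ranged from -0.297 to 0.603 over the fits without 1 library, and the cause was not tested. Gata3 stayed between 0.138 and 0.339 without 1 library and between 0.199 and 0.247 otherwise. Emx2 ranged from -0.635 to -0.005, Osr1 from -1.052 to -0.014 and Pax8 from -1.208 to -0.59 without 1 library, which leaves a lone sample that is assumed to vary like the other group. With the filter of at least 10 in all libraries Osr1 and Pax8 drop out, and edgeR did not keep Pax8. Library size scaling moved the median of all genes to -0.03 and changed no call of a factor. Replicate numbers are shared by title only: differences between same-numbered libraries correlated at 0.325 over 10051 genes, and the replicate block, given here as a hint, kept the count of genes at 3 and of factors at 0. Depth limits Pax8 and Osr1, at 1 to 17 reads per library. No group had more than 2 libraries, so no outlier check could be made.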
